A study of Mus musculus with 6 samples.

Results

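The proteasome genes of adult mouse cardiomyocytes, the contracting muscle cells of the heart, were compared between libraries labelled TFEB-/- and wild-type (WT) libraries. TFEB stands for transcription factor EB. Members were chosen by symbol: Psma to Psmg followed by a number, with no pseudogene suffix. This gave 50 genes among the 46517 entries of the deposited table. A proteasome role is known for 49 of them, and Psmc3ip, a cofactor of meiotic recombination, matched by its name alone. Both Psmb11, the catalytic subunit of the thymus, and Psme2b were listed at 0 in all libraries, so 48 members passed the filter of at least 1 CPM in at least 3 libraries.

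The TFEB-/- group and the WT group held 3 libraries each, from C57BL/6 hearts of 3-month-old mice. Cardiomyocytes were isolated and polyadenylated RNA was sequenced with a stranded kit as pairs of 75 bases. The sources used here do not state the promoter or recombinase behind the deletion, the deleted exons, the sex of the mice, or whether each library came from its own animal, so the p-values measure the spread between these libraries, which may be technical. TFEB is a transcription factor that switches on lysosomal and autophagy genes. The values describe the transcripts of the other large protein-degrading system, the proteasome, in cells labelled as deleted for this regulator.

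The proteasome is a barrel-shaped protease that breaks down proteins tagged with ubiquitin. Its 20S core stacks outer rings of alpha subunits, which form the gate, on inner rings of beta subunits, some of which cut proteins, and a 19S cap recognizes tagged proteins, removes ubiquitin and unfolds the chain with a ring of ATPases. In immune cells and after interferon, the immunoproteasome subunits Psmb8, Psmb9 and Psmb10 take the places of Psmb5, Psmb6 and Psmb7, and activators other than the cap, such as the PA28 ring (Psme1 and Psme2) and PA200 (Psme4), can sit on the core. Cardiac muscle relies on this system to turn over its contractile proteins.

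Tfeb, the deleted gene, had 6, 5 and 7 CPM in TFEB-/- cells, against 17, 30 and 23 CPM in WT cells (log2 fold change −1.85, SE 0.24, limma adjusted p = 0.0267). Tfeb transcript was therefore lower in the TFEB-/- libraries but still present. The libraries summed to 999505 to 999655 CPM, had 12070 to 12664 genes at 1 CPM or more, and their depth in reads is unknown. Values were rounded to whole CPM, so each may be off by 0.5 CPM. Mitochondrial transcripts took 22.2%, 30.3% and 25.3% of the TFEB-/- libraries, against 30.7%, 33.9% and 44.6% of the WT libraries. The log2 fold change (TFEB-/- over WT) of all 12437 tested genes had a median of 0.24 on the deposited scale and of 0.01 after median-ratio scaling, which sets the typical gene equal between libraries. Positions of members are therefore also given relative to that median. All 8 cardiomyocyte markers were detected, with Myh6, the main adult myosin heavy chain, between 18996 and 33390 CPM in the 6 libraries.

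No proteasome gene passed the adjusted threshold of 0.05 in either direction in the limma comparison of the deposited values. Over all tested genes, 487 (3.92%) were called higher and 65 (0.523%) lower in TFEB-/- cells, and after median-ratio scaling 481 (3.87%) higher and 200 (1.61%) lower. At an unadjusted p below 0.05, 15 of the 48 members (31.2%) were higher, against 21.1% of all tested genes, and 1 member (2.08%) was lower, against 2.3%. Without Psmc3ip, 14 of 47 (29.8%) were higher. All 3 TFEB-/- libraries lay above all 3 WT libraries in 17 members (35.4%), against 21.2% of all genes, and below them in 2 members (4.17%), Psme4 and Psma3, against 2.28%. After median-ratio scaling the counts without overlap were 6 members above (12.5%), against 14.3% of all genes, and 4 below (8.33%; Psma3, Psmb2, Psme3 and Psme4), against 11.8%. Psme4 was then called lower and no member was called higher. With this scaling, 8 of the 48 members were below an unadjusted limma p of 0.05 in either direction, against 22.3% of all genes. On the deposited scale the members had a median log2 fold change of 0.26, which is 0.02 above that of all tested genes. A missed threshold does not show that a gene was equal in the groups.

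**Figure D1:**
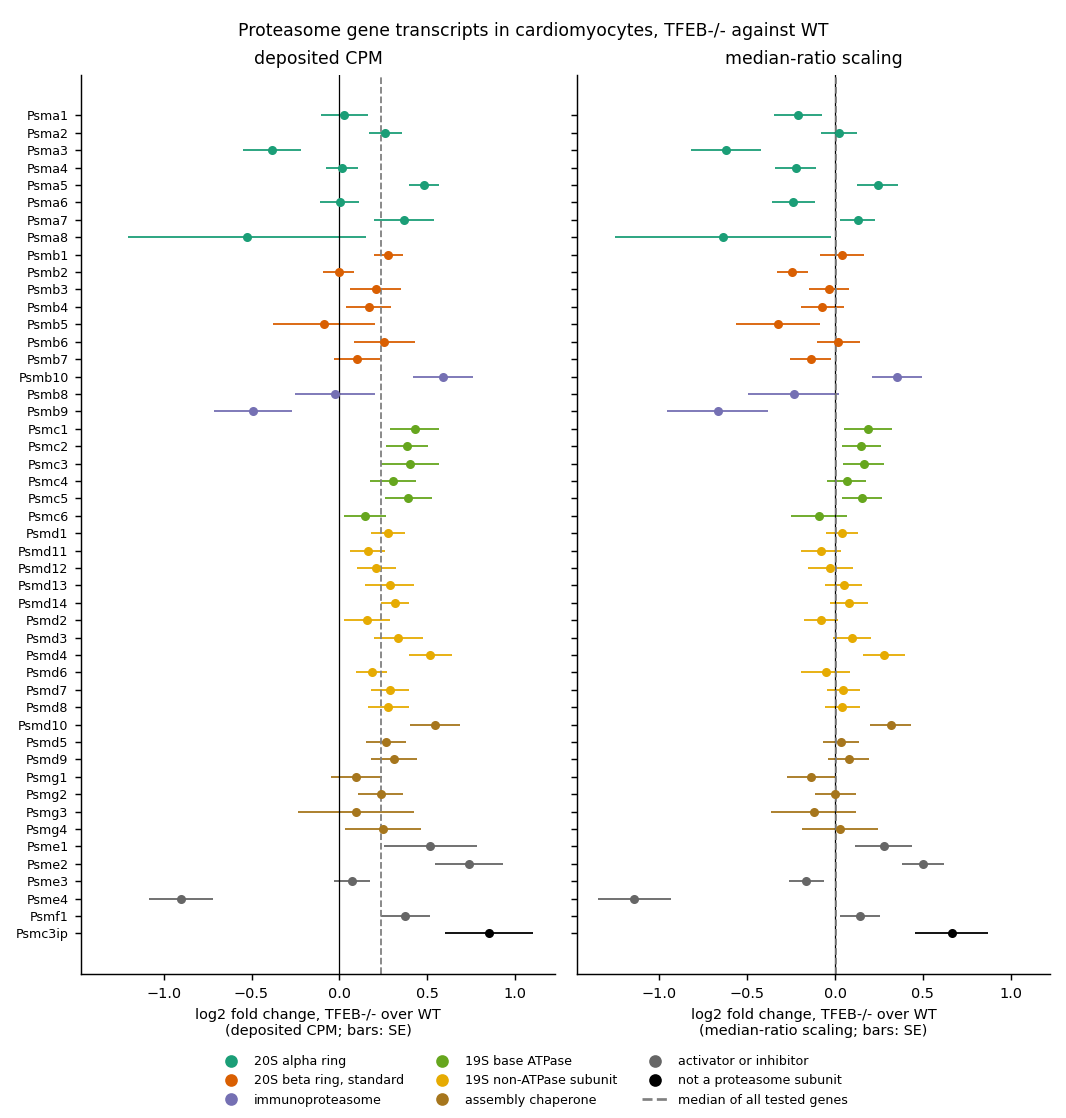
Log2 fold change, TFEB-/- over WT, of the 48 tested members, on the deposited CPM (left) and after median-ratio scaling (right). Points are limma estimates, bars are SE, colours give the role in the proteasome, and the dashed line is the median of all 12437 tested genes, 0.24 on the left and 0.01 on the right. Most members lie near the dashed line, with Psme4 farthest to its left at −0.90 on the deposited scale.

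The member that differed most between the groups by size was Psme4, which encodes PA200, an activator that binds the ends of the core and has been linked to degradation of acetylated histones in mouse testis. Psme4 had 92, 145 and 112 CPM in TFEB-/- cells, against 220, 224 and 199 CPM in WT cells. The highest TFEB-/- library was below the lowest WT library. The log2 fold change was −0.90 (SE 0.18) with a limma adjusted p of 0.0697, just outside the threshold, and −1.14 after median-ratio scaling (SE 0.21, limma adjusted p = 0.0233). Within each library, Psme4 amounted to 3.13%, 5.23% and 3.66% of the summed CPM of the 31 constitutive core and cap subunits in TFEB-/- cells, against 8.53%, 8.15% and 9.16% in WT cells. That share, which does not depend on the scaling between libraries and was computed after the values had been seen, averaged 4.01% ± 1.09 in TFEB-/- cells and 8.62% ± 0.509 in WT cells (SD, n = 3 each). The gene spans chr11:30771726-30880361 on the plus strand (GRCm38), with a transcript of 6491 bases. A processed pseudogene, Gm12103, lies within it on the opposite strand.

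The PA28 genes lay on the other side. Psme2, the beta subunit of this ring, had 72, 48 and 57 CPM in TFEB-/- cells, against 38, 38 and 29 CPM in WT cells. The groups did not overlap, and the log2 fold change of 0.74 (SE 0.20) missed the threshold with a limma adjusted p of 0.115. After median-ratio scaling the groups of Psme2 were still apart, with a log2 fold change of 0.50 (SE 0.12, limma adjusted p = 0.0576). Its partner Psme1, the alpha subunit, had 179, 104 and 142 CPM in TFEB-/- cells, against 112, 107 and 75 CPM in WT cells. Here the second TFEB-/- library fell among the WT libraries (0.52, SE 0.27, limma adjusted p = 0.287, and 0.28 after median-ratio scaling). Psme2b, 99.4% identical to Psme2 over 794 aligned bases, was listed at 0 throughout, and reads from the shared bases cannot be told apart. Psme3, the subunit of the nuclear PA28 ring, had 58, 57 and 60 CPM in TFEB-/- cells, against 59, 60 and 48 CPM in WT cells, and the groups overlapped. Psmf1, which encodes the core inhibitor PI31, had 24, 21 and 20 CPM in TFEB-/- cells, against 17, 19 and 14 CPM in WT cells. These groups did not overlap, but the difference did not pass (0.38, SE 0.14, limma adjusted p = 0.201), and it lay 0.14 above the median of all genes.

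**Figure D2:**
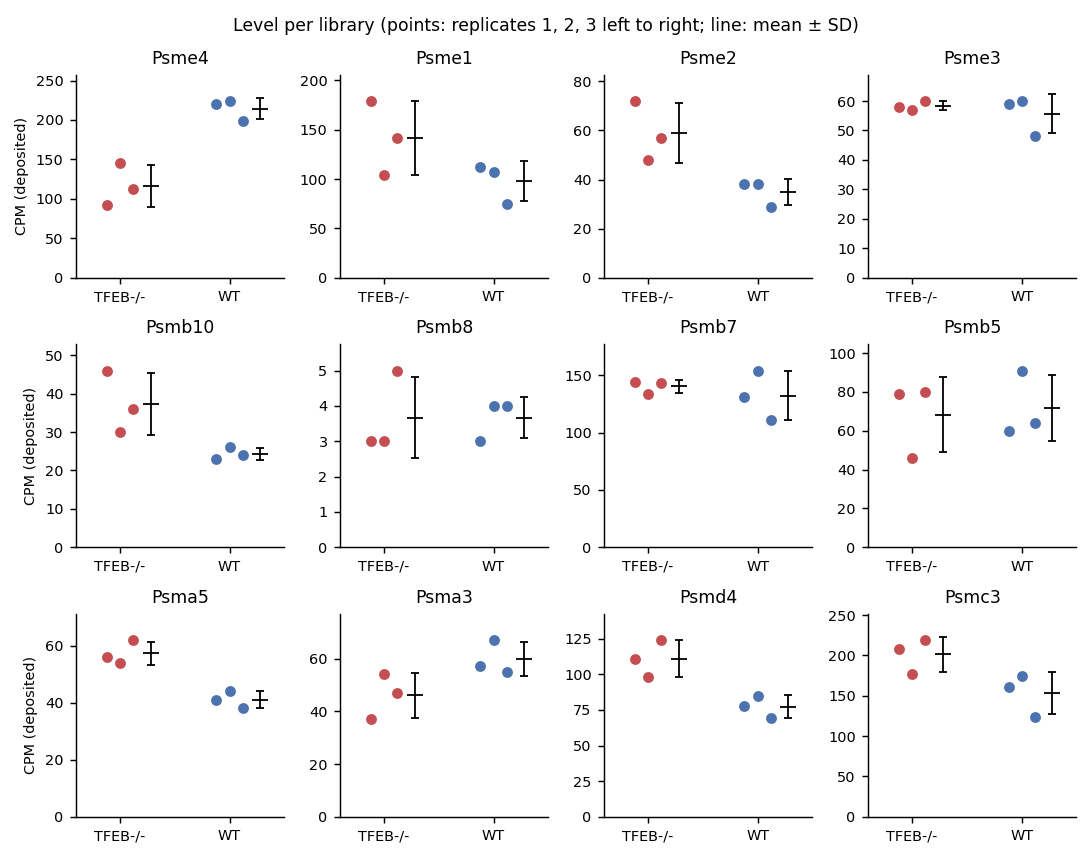
Deposited CPM of 12 members in each library, TFEB-/- in red and WT in blue, with a line for the mean and a bar for the SD of 3 libraries. Psme4 is at 92 to 145 CPM in TFEB-/- cells and at 199 to 224 CPM in WT cells, while Psme2, Psmb10, Psma5 and Psmd4 lie higher in all 3 TFEB-/- libraries than in any WT library.

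The start regions of Psme4, Psme1, Psme2 and Psmb10 are printed because these activator and immunoproteasome genes lay on opposite sides of the comparison. Each runs 5′ to 3′ on the gene's strand from 130 bases before to 25 bases after the start (RefSeq, GRCm38.p6). Capitals mark the matches to the searched motifs: in Psme4 and Psme2 the antioxidant response element core TGANNNNGC, bound by NRF proteins, in Psme1 the interferon-stimulated response element core, GAAA, any 2 bases and GAAA, and in Psmb10 the E-box CACGTG, the core of the site that TFEB binds. For Psme2 the second of 2 annotated starts is shown.
Psme4, chr11:30771645-30771799, plus strand: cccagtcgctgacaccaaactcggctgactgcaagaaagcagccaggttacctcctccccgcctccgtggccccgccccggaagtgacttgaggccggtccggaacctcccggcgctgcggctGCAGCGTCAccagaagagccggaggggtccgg
Psme1, chr14:55578364-55578518, plus strand: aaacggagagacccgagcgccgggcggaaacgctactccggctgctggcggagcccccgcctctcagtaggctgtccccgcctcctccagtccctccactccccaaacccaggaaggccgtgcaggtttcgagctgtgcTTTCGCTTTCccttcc
Psme2, chr14:55591077-55591231, minus strand: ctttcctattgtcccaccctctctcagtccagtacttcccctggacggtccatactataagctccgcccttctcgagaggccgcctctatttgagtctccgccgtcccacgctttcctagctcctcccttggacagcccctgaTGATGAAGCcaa
Psmb10, chr8:105938368-105938522, minus strand: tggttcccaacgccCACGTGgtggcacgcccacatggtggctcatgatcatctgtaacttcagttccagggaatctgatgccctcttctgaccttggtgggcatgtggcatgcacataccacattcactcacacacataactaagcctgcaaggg

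Promoters of 42 members were matched in RefSeq and searched on both strands, from 250 bases before to 50 after the start, and 8 members were not matched (Psma8, Psmb1, Psmb2, Psmb7, Psmc3, Psmd3, Psmd7 and Psmg2). CACGTG was found in 4 of the 42 (9.52%), namely Psma4, Psmb10, Psmd9 and Psme3, against 8.09% of 27025 genes. Its longer form TCACGTGA, which contains CACGTG, was found in 0 members, against 1.12% of genes. TGANNNNGC stood in 24 members (57.1%), against 45.0% of genes, and the interferon-stimulated core in 5 (11.9%), against 3.99%. The gamma-interferon activated site TTCNNNGAA stood in 3 members (7.14%; Psmb8, Psmd2 and Psmg1), against 9.55% of genes, and CCAAT, bound by NF-Y, in 15 (35.7%), against 41.1%. These are matches of letters and not measured binding.

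Of the immunoproteasome genes, Psmb10 was the abundant one and Psmb8 and Psmb9 were close to the rounding limit. Psmb10 had 46, 30 and 36 CPM in TFEB-/- cells, against 23, 26 and 24 CPM in WT cells. The groups did not overlap, and the log2 fold change was 0.59 (SE 0.17, limma adjusted p = 0.136), or 0.35 after median-ratio scaling (limma adjusted p = 0.207). An antisense gene, Gm16156, overlaps it. Psmb8 had 3, 3 and 5 CPM in TFEB-/- cells, against 3, 4 and 4 CPM in WT cells. Psmb9 had 1 CPM in each of the 3 TFEB-/- libraries, against 1, 2 and 2 CPM in WT cells, a gap of a single rounding step. The 3 genes had a median log2 fold change of −0.02, against 0.24 for all tested genes, and their summed CPM was 50, 34 and 42 in TFEB-/- cells, against 27, 32 and 30 in WT cells.

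The standard catalytic subunits overlapped between the groups. Psmb5, which carries the chymotrypsin-like activity, had 79, 46 and 80 CPM in TFEB-/- cells, against 60, 91 and 64 CPM in WT cells. Psmb6, with the caspase-like activity, had 122, 92 and 115 CPM in TFEB-/- cells, against 93, 107 and 76 CPM in WT cells. Psmb7, with the trypsin-like activity, had 144, 134 and 143 CPM in TFEB-/- cells, against 131, 154 and 111 CPM in WT cells. In each of the 3 genes, at least 1 WT library exceeded a TFEB-/- library.

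Each immunoproteasome subunit was set against the standard subunit it replaces, as a log2 ratio within the library, and the 3 pairs were tested by exact two-sided permutation, for which 0.1 is the smallest p that 3 against 3 libraries allow. For Psmb10 over Psmb7 the log2 ratio was −1.64, −2.14 and −1.98 in TFEB-/- cells, against −2.48, −2.54 and −2.19 in WT cells. The groups did not overlap, with a difference of 0.49 (exact permutation p = 0.1, adjusted over the 3 pairs 0.3). Per base of transcript, Psmb10 made up 22.0%, 16.5% and 18.2% of the pair in TFEB-/- cells, against 13.5%, 13.0% and 16.1% in WT cells. Psmb8 over Psmb5 differed by 0.06 (exact permutation p = 0.9, adjusted 0.9) and Psmb9 over Psmb6 by −0.75 (exact permutation p = 0.2, adjusted 0.3), the second resting on Psmb9 values of 1 or 2 CPM. Since the authors' values may or may not already be scaled by transcript length, the share of the pair is also given as deposited: Psmb10 made up 24.2%, 18.3% and 20.1% of it in TFEB-/- cells, against 14.9%, 14.4% and 17.8% in WT cells.

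Immune cells express Psmb8, Psmb9, Psmb10, Psme1 and Psme2, so their markers stand beside these values. Psmb8 (3, 3 and 5 CPM in TFEB-/- cells, against 3, 4 and 4 CPM in WT cells) did not have a higher mean in TFEB-/- cells. Neither did Psmb9 (1, 1 and 1 CPM, against 1, 2 and 2 CPM). The 10 macrophage markers summed to 42, 48 and 40 CPM in TFEB-/- cells, against 19, 21 and 29 CPM in WT cells, without overlap. Of these, 8 were tested and none was called. All 8 had a log2 fold change above 0, with a median of 0.71, or 0.50 after median-ratio scaling. Only 1 of them separated the groups: Lyz2, a macrophage lysozyme, had 14, 20 and 16 CPM in TFEB-/- cells, against 6, 7 and 9 CPM in WT cells (limma adjusted p = 0.0544). The 9 lymphocyte markers summed to 0 CPM in all TFEB-/- libraries, against 2, 0 and 2 CPM in WT cells, and 8 of them, among them Cd4, Cd8a and Ptprc, were at 0 in all libraries. The part of macrophage RNA in Psmb8, Psmb9, Psmb10, Psme1 and Psme2 was not tested. Summed CPM of the other marker lists was 283, 272 and 299 for endothelial cells in TFEB-/- cells, against 386, 272 and 311 in WT cells. Of the 10 endothelial markers, 1 had a log2 fold change above 0, and the median was −0.17, or −0.41 after median-ratio scaling. For fibroblasts the sums were 117, 157 and 121 CPM in TFEB-/- cells, against 125, 102 and 120 CPM in WT cells, and for smooth muscle and pericytes 525, 544 and 535 CPM in TFEB-/- cells, against 448, 390 and 357 CPM in WT cells. Acta2 alone held 161, 233 and 185 CPM of the latter in TFEB-/- cells, against 66, 118 and 70 CPM in WT cells. Only 4 of those 8 markers had a log2 fold change above 0, and their median was −0.03, or −0.26 after median-ratio scaling. The fibroblast marker Pdgfra was the 1 marker called on the deposited scale, at 3 CPM in each TFEB-/- library against 2 CPM in each WT library (limma adjusted p = 0.00336), a single rounding step. After median-ratio scaling it was not called (0.29, limma adjusted p = 0.336), and 1 endothelial marker was called lower instead. In bulk RNA, fewer cells of a type and less RNA per cell cannot be told apart.

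In the alpha ring, which gates the core, Psma5 had the smallest adjusted p of all members. It had 56, 54 and 62 CPM in TFEB-/- cells, against 41, 44 and 38 CPM in WT cells. The groups were 10 CPM apart at their nearest libraries, and the log2 fold change of 0.48 (SE 0.09) had a limma adjusted p of 0.0561, outside the threshold. After median-ratio scaling it was 0.24 (SE 0.11, limma adjusted p = 0.267). Psma7 had 99, 72 and 86 CPM in TFEB-/- cells, against 73, 71 and 55 CPM in WT cells, with overlap at the second TFEB-/- library. Psma6, the alpha subunit with the highest mean level, as deposited and per base of transcript, had 86, 96 and 92 CPM in TFEB-/- cells, against 95, 101 and 79 CPM in WT cells. Psma8, the testis form of an alpha subunit, was at 0 or 1 CPM. The 8 alpha genes had a median log2 fold change of 0.02, which is 0.21 below that of all genes, and 2 of the 8 were higher at an unadjusted p below 0.05, close to the 21.1% of all genes.

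Psma3 was the only alpha gene whose groups did not overlap in the other direction: 37, 54 and 47 CPM in TFEB-/- cells, against 57, 67 and 55 CPM in WT cells (−0.38, SE 0.17, limma adjusted p = 0.252). Psma3 (chr12:70974621-70996347, plus strand, GRCm38) has a near copy whose reads cannot be told apart from its own where the sequence is shared. The processed pseudogene Gm13835 (chr6:31141979-31142663, minus strand, GRCm38) was identical to the Psma3 transcript at all 665 aligned bases. Gm13835 had 20, 20 and 19 CPM in TFEB-/- cells, against 10, 7 and 7 CPM in WT cells, and passed the threshold (1.26, SE 0.15, limma adjusted p = 0.0214). Added together, Psma3 and Gm13835 had 57, 74 and 66 CPM in TFEB-/- cells, against 67, 74 and 62 CPM in WT cells. The sums overlapped and had a log2 fold change of −0.05 (limma adjusted p = 0.843), so neither entry alone gives the level of the shared sequence. Psmb5 has such a copy in Gm3375 (chr7:3181093-3181888, plus strand, 98.9% identical over 796 bases), which had 10, 18 and 10 CPM in TFEB-/- cells, against 8, 0 and 0 CPM in WT cells. The sum of Psmb5 and Gm3375 was 89, 64 and 90 CPM in TFEB-/- cells, against 68, 91 and 64 CPM in WT cells, again with overlap (0.12, limma adjusted p = 0.726). The library with the least Psmb5, the second TFEB-/- one, was the one with the most Gm3375.

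The following stretches of transcript give, for each gene and its copy, 75 bases of the gene's coding sequence on the gene's strand, 5′ to 3′. Capitals mark the bases that differ. Coding bases 399 to 473 of Psma3 had 0 differences, so a read of 75 bases from this window fits both entries, and coding bases 360 to 434 of Psmb5 had 2.
Psma3: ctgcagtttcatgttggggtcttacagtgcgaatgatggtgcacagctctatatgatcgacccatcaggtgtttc
Gm13835: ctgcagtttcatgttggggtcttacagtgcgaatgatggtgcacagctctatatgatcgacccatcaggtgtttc
Psmb5: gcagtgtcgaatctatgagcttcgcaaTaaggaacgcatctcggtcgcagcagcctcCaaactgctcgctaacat
Gm3375: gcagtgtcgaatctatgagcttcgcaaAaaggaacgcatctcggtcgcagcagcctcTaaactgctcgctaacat

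**Figure D3:**
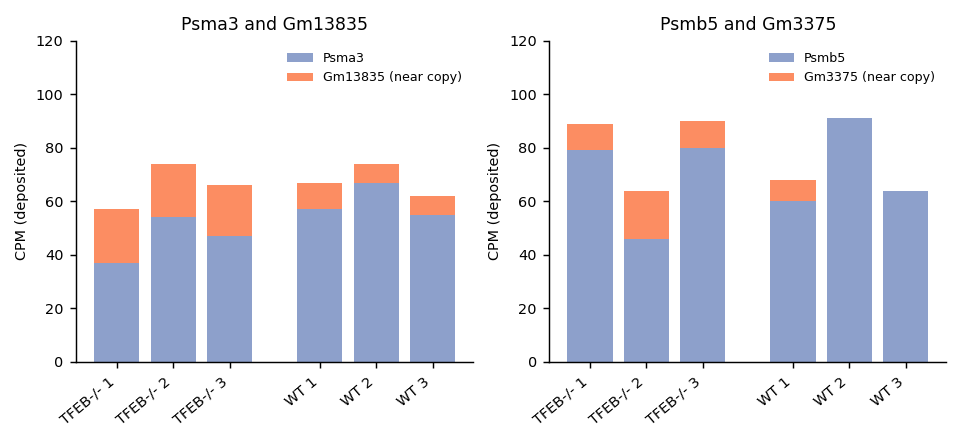
Deposited CPM per library of Psma3 stacked with Gm13835 (left) and of Psmb5 stacked with Gm3375 (right), TFEB-/- libraries left of WT libraries. Gm13835 adds 19 or 20 CPM to Psma3 in TFEB-/- cells and 7 to 10 CPM in WT cells, and the stacked heights of the groups overlap in both panels.

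The 7 standard beta genes had a median log2 fold change of 0.17, 0.07 less than all genes. Psmb1, a structural beta subunit, had 103, 107 and 107 CPM in TFEB-/- cells, against 83, 97 and 82 CPM in WT cells. It was the 1 beta gene without overlap (0.28, SE 0.08, limma adjusted p = 0.139), and after median-ratio scaling its log2 fold change was 0.04. Psmb2, also structural, had 79, 71 and 79 CPM in TFEB-/- cells, against 81, 80 and 69 CPM in WT cells.

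The 17 genes of the 19S cap all had a log2 fold change above 0 on the deposited scale, as did 79.8% of all tested genes. They lay between 0.15 and 0.52 with a median of 0.29, which is 0.05 above all genes. Of the 17, 9 did not overlap between the groups (52.9%, against 21.2% of all genes) and 7 were higher at an unadjusted p below 0.05 (41.2%, against 21.1%). After median-ratio scaling 12 of the 17 were above 0 and 5 below, with a median of 0.05, against 0.01 for all genes. The groups of 1 gene, Psmd4, still did not overlap (5.88%, against 14.3% of all genes). The third WT library, the one with the most mitochondrial transcripts, was the lowest of the 6 in all 17 cap genes and in 39 of the 48 tested members. It also had the smallest median-ratio scaling factor (0.818, against 0.935 to 1.19 in the others), so the typical gene was low in this library. The share of all tested genes that were lowest in it was not counted. The part of the mitochondrial share in the differences of the members was not tested beyond the scaling.

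Among the 6 base ATPases, which unfold the substrate, the median was 0.39, 0.15 above all genes. Psmc1 had 104, 113 and 128 CPM in TFEB-/- cells, against 90, 95 and 72 CPM in WT cells (0.43, SE 0.14, limma adjusted p = 0.170). Psmc3, the base gene with the highest mean level, as deposited and per base, had 208, 177 and 219 CPM in TFEB-/- cells, against 161, 175 and 124 CPM in WT cells (0.40, SE 0.16, limma adjusted p = 0.228). Both genes separated the groups, Psmc3 by only 2 CPM, and after median-ratio scaling, when both overlapped, their log2 fold changes were 0.19 for Psmc1 and 0.16 for Psmc3. Of the other 4, Psmc2 and Psmc5 also separated the groups on the deposited scale, and Psmc4 and Psmc6 did not. Base genes without overlap thus made up 66.7%, against 21.2% of all genes. After median-ratio scaling they made up 0.0%, against 14.3% of all genes.

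The 11 other cap subunits had a median of 0.28. Psmd4, the ubiquitin receptor of the cap, had 111, 98 and 124 CPM in TFEB-/- cells, against 78, 85 and 69 CPM in WT cells. Its log2 fold change was 0.52 (SE 0.12, limma adjusted p = 0.0960), and it was 0.28 after median-ratio scaling. Psmd14, the deubiquitinase that removes the ubiquitin chain, had 43, 44 and 45 CPM in TFEB-/- cells, against 36, 38 and 32 CPM in WT cells (0.32, SE 0.08, limma adjusted p = 0.102, and 0.08 after median-ratio scaling). Psmd3, a scaffold of the lid, had 148, 122 and 147 CPM in TFEB-/- cells, against 111, 125 and 95 CPM in WT cells. Psmd2, a large scaffold that binds ubiquitin shuttles, had 185, 168 and 196 CPM in TFEB-/- cells, against 190, 163 and 142 CPM in WT cells. The groups overlapped in both of these scaffolds.

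Core and cap were also compared within each library. The 14 standard core genes summed to 1221, 1134 and 1232 CPM in TFEB-/- cells, against 1101, 1230 and 962 CPM in WT cells. The 17 cap genes summed to 1715, 1641 and 1825 CPM in TFEB-/- cells, against 1477, 1517 and 1210 CPM in WT cells. The core sums overlapped and the cap sums did not. The ratio of core to cap was 0.712, 0.691 and 0.675 in TFEB-/- cells, against 0.745, 0.811 and 0.795 in WT cells. It averaged 0.693 ± 0.0185 in TFEB-/- cells and 0.784 ± 0.0341 in WT cells (SD, n = 3 each). With the near copies added to Psma3 and Psmb5 the ratio was 0.729, 0.714 and 0.691 in TFEB-/- cells, against 0.758, 0.815 and 0.801 in WT cells. The groups were apart in both forms, and since the ratio was computed after the values were seen it is given with no test.

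**Figure D4:**
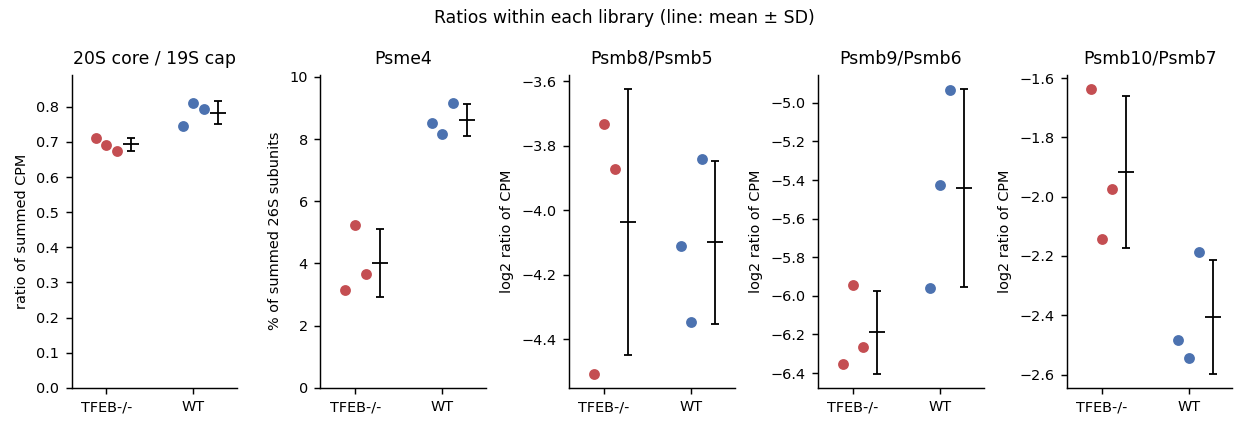
Values formed within each library, TFEB-/- in red and WT in blue, with lines for the mean and bars for the SD of 3 libraries: summed core over summed cap CPM, Psme4 as a percentage of the 31 summed core and cap genes, and the log2 ratio of each immunoproteasome subunit to its standard counterpart (axes of the ratios do not start at 0). The core to cap ratio, the Psme4 percentage and Psmb10 over Psmb7 show no overlap between the groups, and the Psmb8 and Psmb9 ratios overlap.

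The 7 assembly chaperones, which build the rings and are not part of the finished particle, had a median log2 fold change of 0.25, 0.01 above all genes. Psmd10, a chaperone of the base also known as gankyrin, had 12, 9 and 9 CPM in TFEB-/- cells, against 7, 7 and 6 CPM in WT cells. The groups did not overlap (0.54, SE 0.14, limma adjusted p = 0.113, and 0.32 after median-ratio scaling). Psmd9, another base chaperone, had 19, 15 and 16 CPM in TFEB-/- cells, against 13, 15 and 12 CPM in WT cells. Psmg2, a chaperone of the alpha ring, had 23, 23 and 22 CPM in TFEB-/- cells, against 20, 22 and 16 CPM in WT cells. In these 2 genes the groups met at a shared value, 15 CPM for Psmd9 and 22 CPM for Psmg2. Psmc3ip, outside the proteasome, had 4, 3 and 3 CPM in TFEB-/- cells, against 2, 2 and 1 CPM in WT cells.

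Genes that work with the proteasome under other names were read from lists of its pathway, and no gene of these 5 lists passed the threshold. Of all tested genes, 23.3% were below an unadjusted limma p of 0.05 in either direction on the deposited scale. The median over all of them, called or not, was 0.24. Of 12 partners of the particle, 3 were below that p, namely Sem1, Adrm1 and Pomp, all higher in TFEB-/- cells. The median log2 fold change of the 12 was 0.05, or −0.19 after median-ratio scaling. Sem1, a small cap subunit, had 110, 113 and 126 CPM in TFEB-/- cells, against 81, 92 and 71 CPM in WT cells (0.52, SE 0.12, limma adjusted p = 0.0858). AI314180, whose human counterpart is the proteasome scaffold ECM29, had 81, 91 and 85 CPM in TFEB-/- cells, against 122, 101 and 83 CPM in WT cells. The groups were apart for Sem1 and overlapped for AI314180. After median-ratio scaling the log2 fold change was 0.28 for Sem1 (limma adjusted p = 0.249) and −0.47 for AI314180 (limma adjusted p = 0.0769), so which of them stood farther from 0 turned with the scaling. With that scaling, Sem1, Adrm1 and Pomp were no longer below an unadjusted limma p of 0.05. AI314180, Akirin2 (−0.59) and Zfand5 (−0.39) were below it instead, all lower in TFEB-/- cells, against 22.3% of all genes in either direction.

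The 6 ubiquitin and E1 genes, which supply and activate ubiquitin, had a median of 0.35, or 0.11 after median-ratio scaling, with 3 of the 6 below an unadjusted p of 0.05 on the deposited scale, against 23.3% of all genes. The polyubiquitin gene Ubb had 919, 699 and 934 CPM in TFEB-/- cells, against 599, 645 and 525 CPM in WT cells (0.52, SE 0.15, limma adjusted p = 0.136). All 3 TFEB-/- libraries lay above the WT libraries for Ubb, whose log2 fold change was 0.28 after median-ratio scaling. Of the 15 genes of ubiquitin shuttles and the p97 segregase, 5 were below an unadjusted p of 0.05 on the deposited scale, against 23.3% of all genes. Their median of 0.21 lay below the 0.24 of all genes and was −0.02 after median-ratio scaling. Vcp, which encodes p97 and pulls tagged proteins out of complexes, had 530, 449 and 526 CPM in TFEB-/- cells, against 398, 360 and 324 CPM in WT cells, without overlap (0.48, SE 0.11, limma adjusted p = 0.0918, and 0.24 after median-ratio scaling).

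Of 12 genes that control proteasome transcription, 11 were tested. On the deposited scale 1 was below an unadjusted limma p of 0.05, against 23.3% of all genes. The median was 0.24, the same as all genes to 2 decimals. After median-ratio scaling it was 0.01, and Maff (−0.56) and Foxo4 (−0.30) were below that p, neither of them called. Nfe2l1, the factor that raises proteasome genes when the protease is inhibited, had 500, 389 and 441 CPM in TFEB-/- cells, against 506, 385 and 370 CPM in WT cells. The groups overlapped, and Nfe2l3 was listed at 0. Of the 18 genes of antigen processing and the interferon response, 0 were below an unadjusted limma p of 0.05 on the deposited scale. The share of all genes was 23.3%. The median of the 18 was 0.10, or −0.13 after median-ratio scaling. With that scaling, Igtp (−0.74), B2m (−0.48) and Erap1 (−0.34) were lower at an unadjusted limma p below 0.05, against 22.3% of all genes in either direction. None of them was called. H2-K1, an antigen-presenting class I molecule, had 57, 45 and 64 CPM in TFEB-/- cells, against 43, 58 and 54 CPM in WT cells, with overlap.

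Across the 31 constitutive core and cap genes, the WT mean bore no visible relation to transcript length (Spearman rho 0.02 across genes, which are not independent replicates). Overlapping genes on the opposite strand were annotated for 19 of the 50 members, and how strand entered the authors' counting is not given in the sources used here.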

How the data were processed

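RNA-seq of isolated cardiomyocytes was used from 6 libraries, 3 TFEB-/- and 3 WT, built from 400 ng of RNA each per the labels. The table deposited by the authors holds 1 value per gene and library, treated here as a score in CPM: the table's name gives kallisto and CPM, and the values are whole numbers with nearly equal sums in all libraries, so they are rounded and are not counts. Whether they were scaled further, for instance by length, is not given in the sources used here. Per the submitters' processing notes, the build was GRCm38 and the tools included kallisto, STAR, Salmon, HISAT2, edgeR, RSEM, DESeq2 and StringTie, with no roles given.

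Values sharing a symbol were summed, which gave 46450 symbols. Genes that reached 1 CPM in 3 or more libraries (12437) entered a limma 3.58.1 fit of log2(CPM + 0.5) on genotype, with trended eBayes (R 4.3.3, statmod 1.5.0). Two-sided p-values of all these genes were adjusted together (Benjamini-Hochberg), and 0.05 was the threshold. The pseudocount of 0.5 understates changes of low genes. This model was first tested on simulated data, with changes larger than any member had on the deposited scale. Changes as small as those of the members, and changes in genes of a few CPM, were not simulated. Alternatives were another pseudocount, other filters, median-ratio scaling, removal of mitochondrial transcripts, a robust fit, a replicate block, each library left out, and, added after seeing the data, near copies summed with their genes.

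Named by rule were Tfeb, the 6 catalytic genes Psmb5 to Psmb10, and up to 2 per pathway or marker list. Per class it also took up to 2 members with the largest log2 fold change above 0 and up to 2 farthest below 0. The most abundant tested member of each class was added. The cap and chaperone classes had no member below 0, so none was chosen there for a low value. Psmc2, Psmc4, Psmc5, Psmc6, Psmd14, Psme3, Psmf1 and the near copies are named beyond that rule, after their values were seen. The members and lists were chosen with earlier results of these data known. Near copies were transcripts at least 90% identical over at least 200 bases. Positions come from a GRCm38 annotation and promoters from RefSeq. Figures were drawn with matplotlib 3.10.9.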

Additional observations from a re-analysis of the deposited data

How the results depend on the processing

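The count of all genes called higher was 780 with a robust fit and 159 with the replicate block, against 487, and 154 to 406 without 1 library. The count called lower was 200 after median-ratio scaling, 188 without mitochondrial transcripts and 26 with the block, against 65, and 38 to 87 without 1 library. The replicate numbers did not pair the libraries: same-numbered libraries deviated together with r of 0.14, −0.05 and 0.09. The second and the third TFEB-/- library did not correlate best with their own numbers. With the block, 0 members were called in either direction.

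Of the members, 1 (Psme2) was called higher with a filter of a mean of at least 5 CPM and with the robust fit, and 0 without any 1 library. Psme4 was the 1 member called lower with that filter, with median-ratio scaling, without mitochondrial transcripts and with the robust fit, and it passed in 5 of 15 alternatives, with log2 fold changes of −1.14 to −0.75 and limma adjusted p of 0.0144 to 0.228. Without 1 library, 0 to 1 members were called lower: Psme4 without the second TFEB-/- library, and Psmb9, a difference of 1 rounding step, without the first WT library.

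The log2 ratio difference of Psmb8 over Psmb5 ranged from −0.0890 to 0.30 without 1 library, of Psmb9 over Psmb6 from −1.01 to −0.49 and of Psmb10 over Psmb7 from 0.35 to 0.60. Signs of uncalled members turned for Psmb5 (0.12 with near copies added, −0.22 to 0.17 without 1 library), Psmb7 (−0.14 after median-ratio scaling, −0.12 without mitochondrial transcripts, −0.0181 to 0.22), Psma6 (−0.24, −0.22, −0.10 to 0.0743 in the same order) and Psmd2 (−0.0826 and −0.0688). Psmb8 ranged from −0.24 to 0.0843 and Psmb2 from −0.0779 to 0.0467 without 1 library. The ratio of core to cap was lower in TFEB-/- cells by a difference of −0.11 to −0.0775 without 1 library. The causes were not tested. Rounding to whole CPM limits genes of a few CPM, and depth in reads is unknown.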
